A study of Ovis aries with 2 samples.

Results

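KIT-positive leukocytes of lamb skin were chosen by their measured values, as the cells with at least 1 UMI (1 captured RNA molecule) for KIT and for at least 3 of the leukocyte genes PTPRC, FCER1G, TYROBP, LAPTM5, SRGN and CORO1A. The rule names 7 leukocyte genes, and CD52 was not used here, so it ran on the other 6. It found 195 of 14037 cells, 164 of 6452 in the straight wool library and 31 of 7585 in the curly wool library. Leukocytes by the same rule without a KIT UMI numbered 115 and 47. These cells carried the transcripts of mast cells, with TPSB2 in 98.8% of the straight and 96.8% of the curly members, and they are called mast cell-like below. Since the rule used KIT and the leukocyte genes, levels of those genes in the members are given as a description.

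Both libraries came from Hu sheep lambs at day 3 after birth, one from straight wool lambs and the other from curly wool lambs, whose phenotype is given as waved wool in the sample labels. Skin of the body side was taken after a local injection of lidocaine, and the study's methods state that skins of 3 lambs of each wool type were pooled. A follicle suspension and a whole-skin suspension were combined and loaded on the 10× Genomics platform, and the proportion of the 2 also enters any share of cells. With 1 library per wool type there was no replicate, no test between wool types was made, and the intervals below are 95% intervals that cover counting error only. Wool type, the lambs in a pool and the preparation of a library cannot be told apart.

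Mast cells are tissue leukocytes that keep the receptor KIT, through which stem cell factor (the product of KITLG) sustains them. They store tryptase, chymase-like proteases, carboxypeptidase and histamine on the serglycin proteoglycan of their granules, and release them when IgE on the high-affinity receptor (FCER1A, MS4A2 and FCER1G) is crosslinked. In skin they lie in the dermis, around vessels, nerves and hair follicles.

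The straight members held 748483 UMIs, with a lowest, median and highest cell of 1172, 3895 and 25884 UMIs. The curly members held 149976 UMIs, with a lowest, median and highest cell of 952, 2713 and 33060. A level is given as CPM (counts per 1e+06 UMIs), with the UMIs of a gene divided by all UMIs of those cells, and a count of 0 allows up to 4.01 CPM in the straight and 20 CPM in the curly members. Some members carried RNA of another cell type. Cells with over 1% of UMIs from keratin genes, or with at least 5 UMIs over 6 endothelial genes, are called mixed, and numbered 5 in straight with 9.20% of the members' UMIs and 6 in curly with 54.7%. One of them, a curly cell of 33060 UMIs, held 6399 of the 6605 CST6 UMIs of the curly members. Without them 159 straight and 25 curly cells remained. Curly levels of single genes are followed in parentheses by the level without mixed cells. There were 70 cell barcodes that occurred in both libraries, 3 of them among members.

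The number of KIT UMIs in a member was small. The members held 404 KIT UMIs in straight, with a median of 2 and a highest value of 9, and 57 in curly, with a median of 1 and a highest value of 5. A single KIT UMI was the basis for 36.6% of the straight and 51.6% of the curly members. When each cell was thinned to 1000 UMIs, KIT was still seen in 44.5% of the straight members (73 of 164) and 33.3% of the curly members (10 of 30, with 1 shallower cell left out). Among cells that were no leukocytes, 0.923% of the straight and 0.786% of the curly cells had a KIT UMI. Endothelial cells, which served as a class that should lack mast cell transcripts, held a median of 6196 and 4861.5 UMIs in straight and curly, and KIT was found in 7.27% and 2.24% of them. Their KIT level was 10.2 and 3.69 CPM, beside 540 and 380 (648) CPM in the members.

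Most KIT-positive cells just inside and just outside the threshold carried TPSB2. KIT-positive cells with exactly 3 leukocyte genes numbered 96 in straight, of which 94 had TPSB2, at 13625 CPM. KIT-positive cells with exactly 2 leukocyte genes numbered 14, of which 12 had TPSB2, at 5472 CPM, and their median depth was 2725.5 UMIs. In curly, 15 cells had exactly 3 of these genes (14 with TPSB2, at 4533 CPM) and 6 had exactly 2 (all 6 with TPSB2, at 7049 CPM). KIT-positive cells without any leukocyte gene seldom carried TPSB2, with 3 of 32 in straight and 0 of 43 in curly. Of these 32 straight cells, 3 had SOX10, a melanocyte marker, and 30 had KRT5, a keratin of basal keratinocytes. KRT5 did not set them apart, since 71 of the 96 straight members with exactly 3 leukocyte genes had it as well.

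Mast cell-like members made up 2.54% (2.17 to 2.96) of the straight and 0.409% (0.278 to 0.580) of the curly cells. Leukocytes of both kinds made up 4.32% and 1.03%. KIT-positive cells were 58.8% (52.8 to 64.6) of the straight and 39.7% (28.8 to 51.5) of the curly leukocytes, and the intervals did not overlap. After thinning to 1000 UMIs, which left out 608 straight and 879 curly cells, the rule found 0.633% (0.446 to 0.872) and 0.0895% (0.0328 to 0.195) of cells. The share of thinned leukocytes that were KIT-positive was 25.2% (18.4 to 33.0) in straight and 13.3% (5.05 to 26.8) in curly, and these intervals overlapped. The straight library held the larger share of mast cell-like cells in both counts, which rests on 1 pool of lambs per wool type.

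The label of mast cell-like cells was checked with 10 defining markers, of which 8 were measured and TPSAB1 and CMA1 were not analysed under those symbols. At least 2 of the 8 were present in 97.6% of the straight and 87.1% of the curly members, and after thinning in 85.4% and 76.7%. Among KIT-negative leukocytes this was 75.7% and 44.7%, and after thinning 61.5% and 43.6%. Among cells that were no leukocytes it was 0.535% and 0.173%, and after thinning 0.377% and 0.151%. Thinned TPSB2 was found in 98.8% and 93.3% of the members, in 81.7% and 51.3% of KIT-negative leukocytes, and in none of 148 straight and 126 curly endothelial cells. Before thinning, 3.03% and 0.746% of the endothelial cells had a TPSB2 UMI. Only 3 members lacked TPSB2, and they were looked up after their values were seen. A curly cell of 18610 UMIs held 28 UMIs of the endothelial gene PECAM1, a straight cell of 8741 UMIs held 19, and a straight cell of 2868 UMIs held 35 UMIs of MCP1, 3 of GATA2 and 1 of MS4A2.

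**Figure D1:**
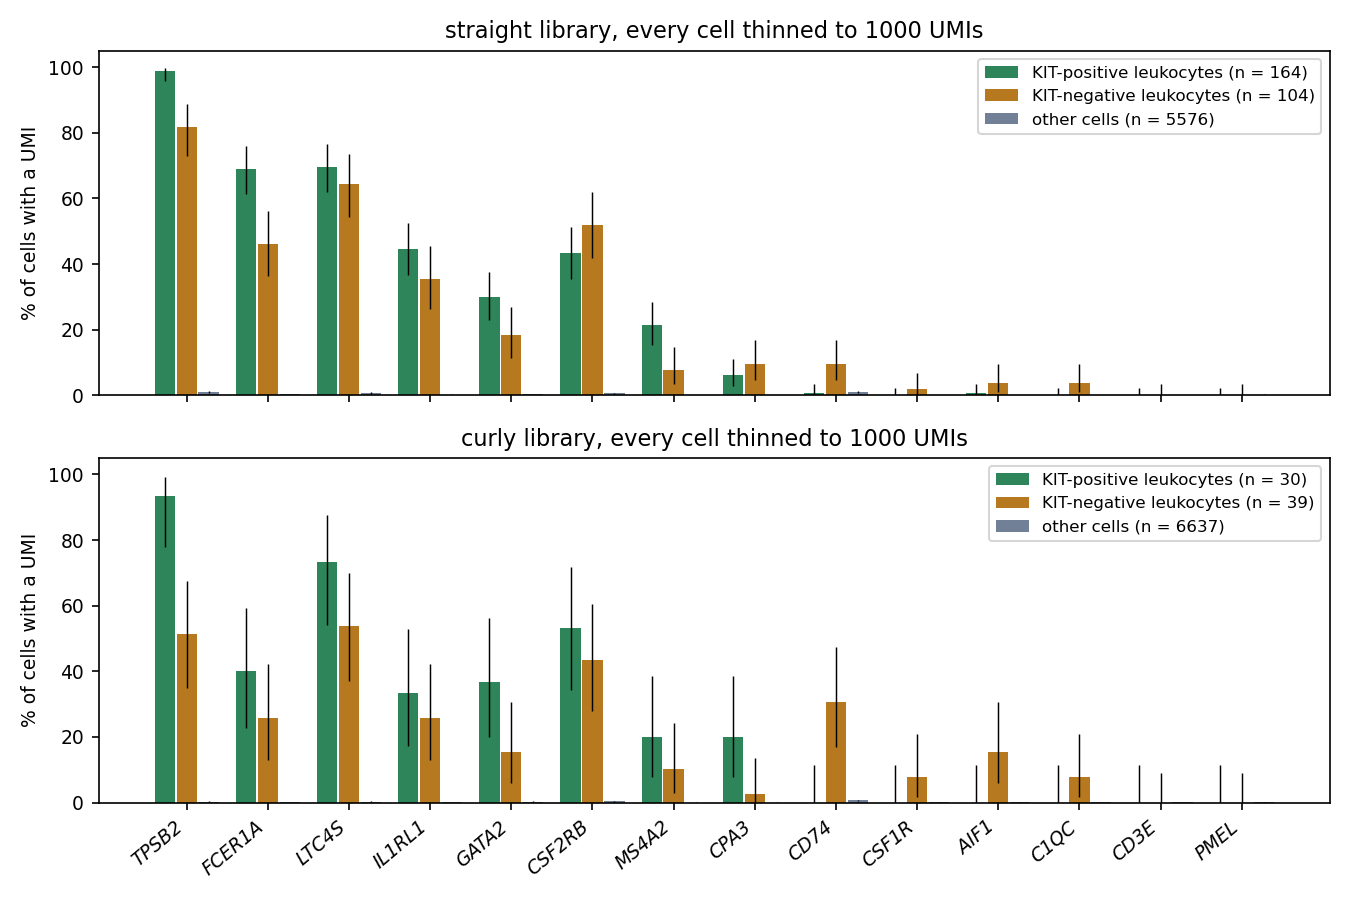
Share of cells with at least 1 UMI (vertical axis, percent) for each gene, with every cell thinned to 1000 UMIs, in the straight library (upper panel) and the curly library (lower panel), for the classes of cells named in the legend. TPSB2 was found in 98.8% of the straight and 93.3% of the curly members, and in 1.02% and 0.271% of the cells that were no leukocytes.

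Granule proteases were among the abundant transcripts, and TPSB2 had the second highest level of all genes in straight and the fifth highest in curly members without mixed cells. TPSB2, a beta tryptase, ranged over straight members from 0 to 126942 CPM per cell, with a median of 12880, and over curly members from 0 to 25346, with a median of 5885. Summed over the cells, it stood at 13662 CPM (13399 to 13930) in straight and 6081 (5693 to 6489) in curly members, and without mixed cells at 14720 and 10852 CPM. The neighbouring locus LOC100144429 stood at 3418 and 1020 (1826) CPM. The symbols MCP1 and MCP-3 denote sheep mast cell proteinases of the chymase-like family. MCP1 had a median of 3582 and a highest value of 41667 CPM per straight cell, a median of 5954 and a highest value of 17482 per curly cell, and summed levels of 5714 and 4714 (7907) CPM. MCP-3 was found in 78.0% of the straight and 35.5% of the curly members, at 4473 and 580 (928) CPM. For LOC101107261, listed with the older names CMA1 and mcp-4, the order was the other one, with 22.0% of straight and 67.7% of curly members and 200 and 540 (972) CPM. These loci belong to multigene families, and how reads shared by related copies were counted was not tested, so a level of one of them is uncertain. CPA3, carboxypeptidase A3, was low at 88.2 and 80.0 (162) CPM, in 30.5% and 29.0% of members.

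LOC101104728, a protein-coding gene without a name in the annotation, had the highest level of all genes in both libraries without mixed cells and varied widely between cells. Its lowest, median and highest value was 0, 12522 and 178632 CPM per straight cell, and 0, 420 and 45418 per curly cell. Summed levels were 28758 CPM (28375 to 29145) and 6434 CPM (6035 to 6853), and without mixed cells 30395 and 13958 CPM, beside 38.3 and 2.58 CPM in cells that were no leukocytes. Without mixed cells, the 16 straight cells with the most of it held 51.7% of its UMIs, while the 16 cells richest in TPSB2 held 25.6% of the TPSB2 UMIs and the 16 richest in LOC101107261 82.3% of its UMIs. Another locus without a name, LOC101114959, was found in 98.8% and 96.8% of members, at 6155 and 3714 (7200) CPM, and lies beside RNASE6 in the RefSeq annotation.

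**Figure D2:**
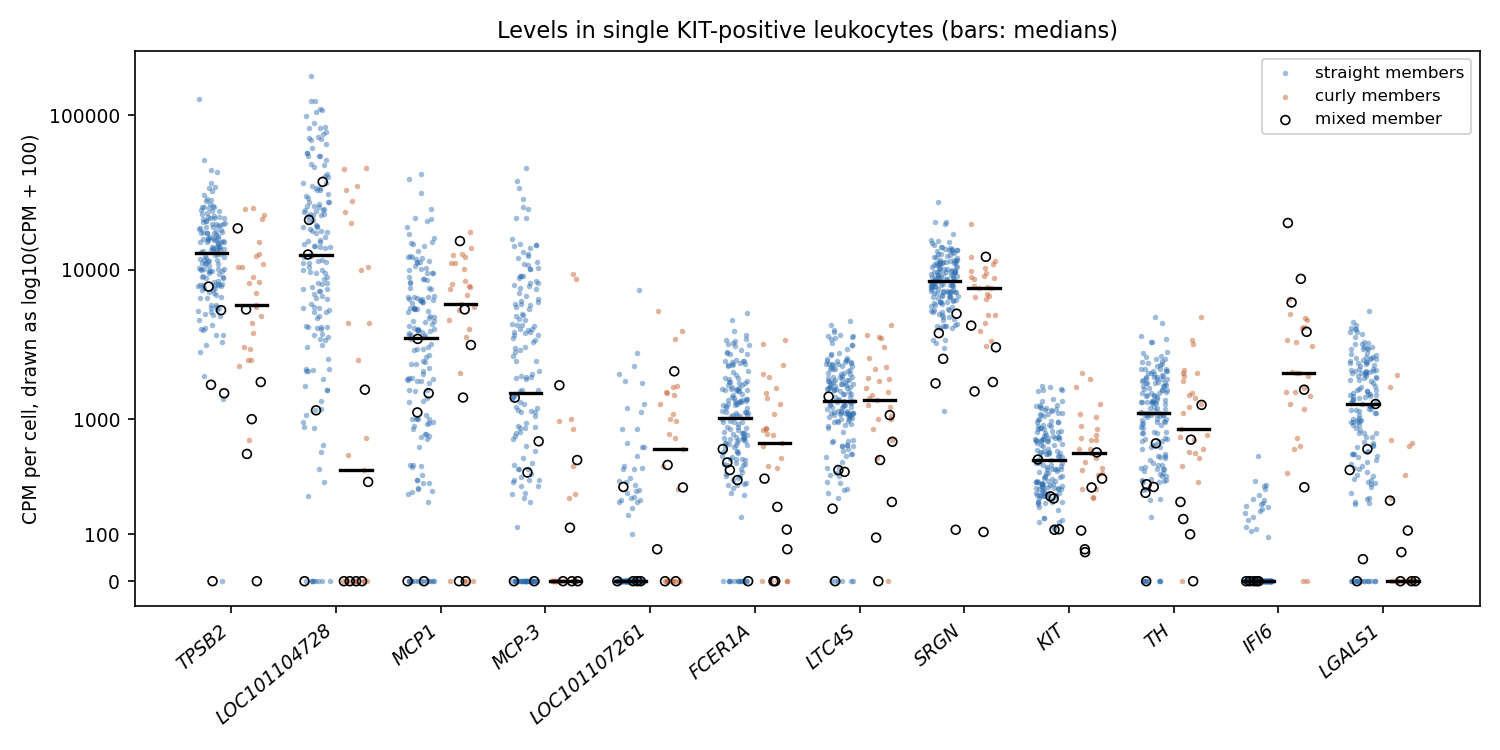
CPM per cell (vertical axis, drawn as log10 of CPM plus 100) for the genes on the horizontal axis, 1 point per KIT-positive leukocyte, coloured by library, with bars at the medians. TPSB2 was present in nearly every cell, while LOC101104728 spread from 0 to 178632 CPM in straight members.

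The chains of the IgE receptor were detected in both libraries. FCER1A, the IgE-binding chain, was found in 91.5% of straight and 77.4% of curly members, at 1285 CPM (1205 to 1369) and 633 CPM (512 to 774), and without mixed cells at 1377 and 1310 CPM, beside 1.7 and 0.3 CPM in cells that were no leukocytes. MS4A2, the beta chain of the same receptor, stood at 212 (181 to 248) and 147 (91.9 to 222) CPM. Without mixed cells it stood at 231 (196 to 270) and 250 (146 to 401) CPM. The intervals of the libraries overlapped in both counts. The signalling chain FCER1G, a gene of the rule, stood at 1693 and 1034 (1885) CPM. IL1RL1, the receptor of interleukin 33, stood at 576 and 287 (471) CPM. CSF2RB, the shared chain of the receptors for IL-3, IL-5 and GM-CSF, stood at 631 and 680 (1237) CPM, and at 588 and 417 CPM in KIT-negative leukocytes. HRH4, a histamine receptor, reached 226 and 140 (236) CPM, and C5AR1, the receptor of complement C5a, 146 and 86.7 (191) CPM. Of 19 measured receptor genes, 17 had a UMI in straight and 11 in curly members, and IL18R1 and ITGA4 had none in either. Of 9 with enough UMIs to set beside KIT-negative leukocytes, 2 were at least 2-fold higher in the members in both libraries, as were 2.41% of all tested genes. At any fold 6 were higher and 3 lower in both, and the share of all genes that were so was not computed.

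Of 20 genes of signalling below the IgE receptor, 19 had a UMI in straight and 18 in curly members. The adaptor LAT stood at 609 and 193 (353) CPM, and LCP2, which binds to it, at 160 and 127 (191) CPM. GRAP2, a further adaptor, stood at 148 and 120 (162) CPM, the guanine nucleotide exchange factor VAV1 at 135 and 66.7 (88.3), the protein kinase C isoform PRKCB at 227 and 66.7 (132), and the kinase BTK at 77.5 and 66.7 (118). The kinases LYN and SYK, which act first at the receptor, were low at 24.0 and 40 (73.6) CPM and at 13.4 and 6.67 (14.7) CPM. Of 18 genes of KIT signalling, 17 and 14 had a UMI. The phosphatase PTPN6 stood at 135 and 40 (88.3) CPM and the kinase JAK2 at 73.5 and 20 (44.2), whereas STAT5A was at 0 in both libraries.

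Of the lipid mediator enzymes, LTC4S and PTGS1 were carried by most members and HPGDS by fewer. LTC4S, leukotriene C4 synthase, was found in 95.7% of straight and 93.5% of curly members, at 1416 and 1134 (2223) CPM. PTGS1, the constitutive cyclooxygenase, was found in 87.2% and 64.5%, at 1125 and 347 (663) CPM. ALOX5, the lipoxygenase that starts leukotriene synthesis, stood at 230 and 100 (147) CPM. HPGDS, the prostaglandin D synthase of mast cells, was found in 22.6% and 12.9% of members, at 60.1 and 33.3 (73.6) CPM. PTGER3, a receptor of prostaglandin E2, stood at 60.1 and 20 (44.2) CPM.

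Genes of amine synthesis were detected at different levels. HDC, which makes histamine, was found in 25% and 19.4% of members, at 78.8 and 60.0 (103) CPM, and SLC18A2, the vesicular monoamine carrier, in 9.76% and 9.68%. TH, tyrosine hydroxylase, the enzyme of the first step of catecholamine synthesis, was found in 94.5% of straight and 93.5% of curly members. Its lowest, median and highest value was 0, 1112 and 4950 CPM per straight cell and 0, 850 and 4958 per curly cell, and summed levels were 1247 CPM (1168 to 1329) and 747 CPM (615 to 899). Without mixed cells TH stood at 1340 CPM in both libraries. DDC, the decarboxylase of the next step, stood at 97.5 and 40 (73.6) CPM. MAOB, which degrades amines, was at 0 in both.

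SRGN, the serglycin core protein and a gene of the rule, was present in all members, at 8235 and 4721 (7774) CPM. Of 24 genes of granule proteoglycan synthesis and secretion, 21 had a UMI in straight and 20 in curly members. CD63, a membrane protein of granules, stood at 2412 and 1000 (1355) CPM, and RAB27B, which docks granules, at 315 and 287 (456). The sulphotransferase HS6ST1 stood at 150 and 133 (236) CPM.

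Among transcription factors, GATA2, which is required for mast cells, was found in 67.7% and 61.3% of members, at 425 and 287 (545) CPM. MITF stood at 92.2 and 53.3 (73.6) CPM, LMO4 at 371 and 200 (309), IKZF1 at 74.8 and 60.0 (118), and GATA1 at 36.1 and 33.3 (73.6), where other cells had 0 GATA1 UMIs. Of cytokine genes, 13 of 17 had a UMI in straight and 9 in curly members. The growth factor LIF stood at 207 and 133 (236) CPM and TGFB1 at 203 and 180 (265). IL13 had 11 UMIs in straight and 0 in curly members, and TNF 3 and 18 UMIs, the latter in 2 cells.

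Markers of other leukocytes were at 0 or low. CD74, the invariant chain of antigen-presenting cells, had 3 UMIs in straight and 0 in curly members, beside 4635 and 8556 CPM in KIT-negative leukocytes. Of 12 measured T cell markers, 3 had a UMI in straight and 2 in curly members, with summed levels of 64.1 and 13.3 CPM. CD8A with 29 and 1 UMIs and CD8B with 18 and 0 made up most of these, while CD3D, CD3E and CD247 had none. In KIT-negative leukocytes T cell markers summed to 56.9 and 90.6 CPM. Macrophage markers summed to 25.4 and 40 CPM (4 of 10 with a UMI in each), beside 1010 and 1588 CPM in KIT-negative leukocytes, and C1QC was at 0. B cell markers summed to 10.7 and 20 CPM, neutrophil markers to 10.7 and 20, and melanocyte markers, another KIT-dependent lineage, to 5.34 and 20, with SOX10, MLANA and DCT at 0. Cytotoxic cell markers summed to 22.7 and 33.3 CPM, beside 12.9 and 61.6 CPM in KIT-negative leukocytes. Innate lymphoid markers summed to 770 and 387 CPM, of which IL1RL1, which mast cells share, gave 576 and 287. The same markers summed to 443 and 225 CPM in KIT-negative leukocytes. Dermal fibroblast markers summed to 159 and 100 CPM. Basophil and eosinophil markers were not analysed here. RNA of keratinocytes was present, with all 10 markers detected in both libraries. Per cell their summed level ran from 378 through a median of 1858 to 54822 CPM in straight and from 860 through 3302 to 35355 CPM in curly members. Over all members they summed to 4549 and 12369 CPM, without mixed cells to 2091 and 2886 CPM, and in cells that were no leukocytes to 27915 and 27457 CPM. The endothelial list summed to 271 and 580 CPM, and without mixed cells to 240 and 118 CPM. The part of this RNA in the levels above was not tested.

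The protease genes varied together only in part. Over the 159 straight members without mixed cells, thinned to 1000 UMIs, TPSB2 and its neighbour LOC100144429 had a Spearman correlation of 0.72, and MCP1 and MCP-3 one of 0.59. Over the 24 curly members that could be thinned, the same pairs had values of 0.49 and -0.003. MCP1 and LOC101114959 had a correlation of 0.41 in straight and 0.35 in curly members. TPSB2 and MCP1 had values of -0.14 and 0.14, which are near 0. The cells share 1 library and the same depth, and neighbouring copies may share reads. MCP1 together with LOC101104728 was found in 136 of 159 straight members, and in 12 of 25 curly members. MCP1 without LOC101104728 was found in 7 straight and 9 curly members. No gene followed KIT closely, since over 337 leukocytes thinned to 1000 UMIs the highest Spearman correlation of 1050 genes with KIT was 0.22, for GNG11, a value too low in sparse counts to describe a shared pattern.

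**Figure D3:**
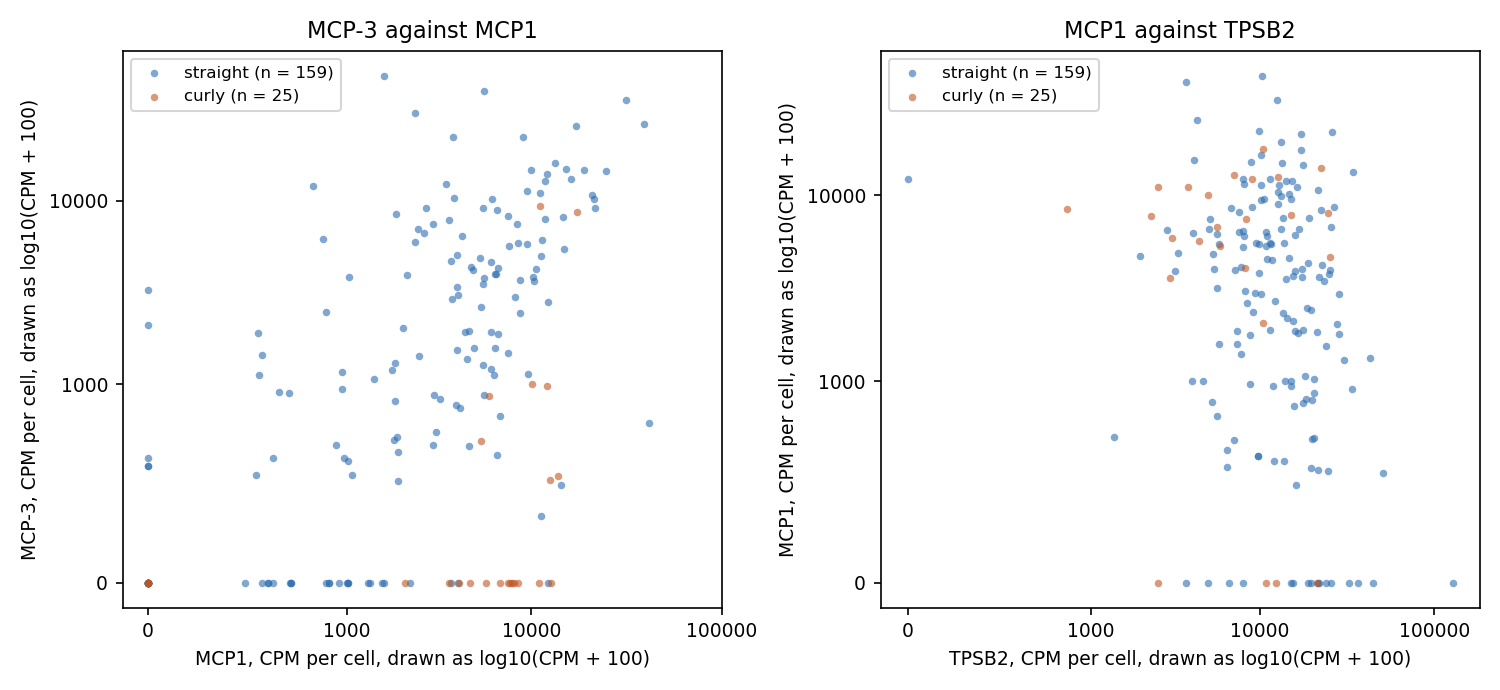
Pairs of granule protease genes in single KIT-positive leukocytes, coloured by library, with CPM per cell on both axes drawn as log10 of CPM plus 100. Spearman correlations were computed on thinned counts of members without mixed cells, 159 straight and 24 curly, and not on the CPM drawn. That of MCP1 with MCP-3 was 0.59 in straight and -0.003 in curly, and that of TPSB2 with MCP1 was -0.14 and 0.14.

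KIT-positive leukocytes were then set beside KIT-negative ones, which is the contrast of the rule itself, so that nothing is read from the counts. Of 3438 genes with at least 50 UMIs, 83 (2.41%) were at least 2-fold higher in the members in both libraries and 142 (4.13%) at least 2-fold lower. With the mean of the CPM per cell instead, these were 36 and 141 genes. Median log2 ratios over all these genes were 0.02 in straight and -0.01 in curly. Of 7 mast cell defining markers with enough UMIs, 3 were at least 2-fold higher in both libraries and all 7 were higher, with median log2 ratios of 0.96 and 2.02. FCER1A stood at log2 1.37 (1.17 to 1.57) in straight and 2.02 (1.49 to 2.58) in curly, MS4A2 at 1.64 and 2.17, TPSB2 at 0.96 and 1.85, and MCP1 at 1.24 and 1.91. PTGS1 was higher by log2 1.61 and 1.63, and the transporter SLC45A3 by 1.64 and 1.83. Of the 16 genes of the dissociation response, 13 had enough UMIs and 2 were at least 2-fold higher in both, NR4A1 (log2 1.81 and 1.61) and FOSB (1.21 and 1.46). KRTDAP, a keratinocyte gene, stood at 2.00 and 1.82, and at -0.13 in straight without mixed cells.

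Among the genes that were lower in the members were several known from antigen-presenting and inflammatory cells. CD74 and CXCL8, a chemokine that draws neutrophils, had 3 UMIs each in straight and 0 in curly members. In KIT-negative leukocytes of the curly library they were at least 428-fold and at least 393-fold higher. LOC101109747, which RefSeq lists with the older name DRA, a class II antigen-presenting chain, was at least 303-fold higher there, and PLAUR, the urokinase receptor, at least 80.1-fold. All 4 dendritic cell markers and all 5 macrophage markers with enough UMIs were at least 2-fold lower in the members in both libraries, where 4.13% of all tested genes were.

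**Figure D4:**
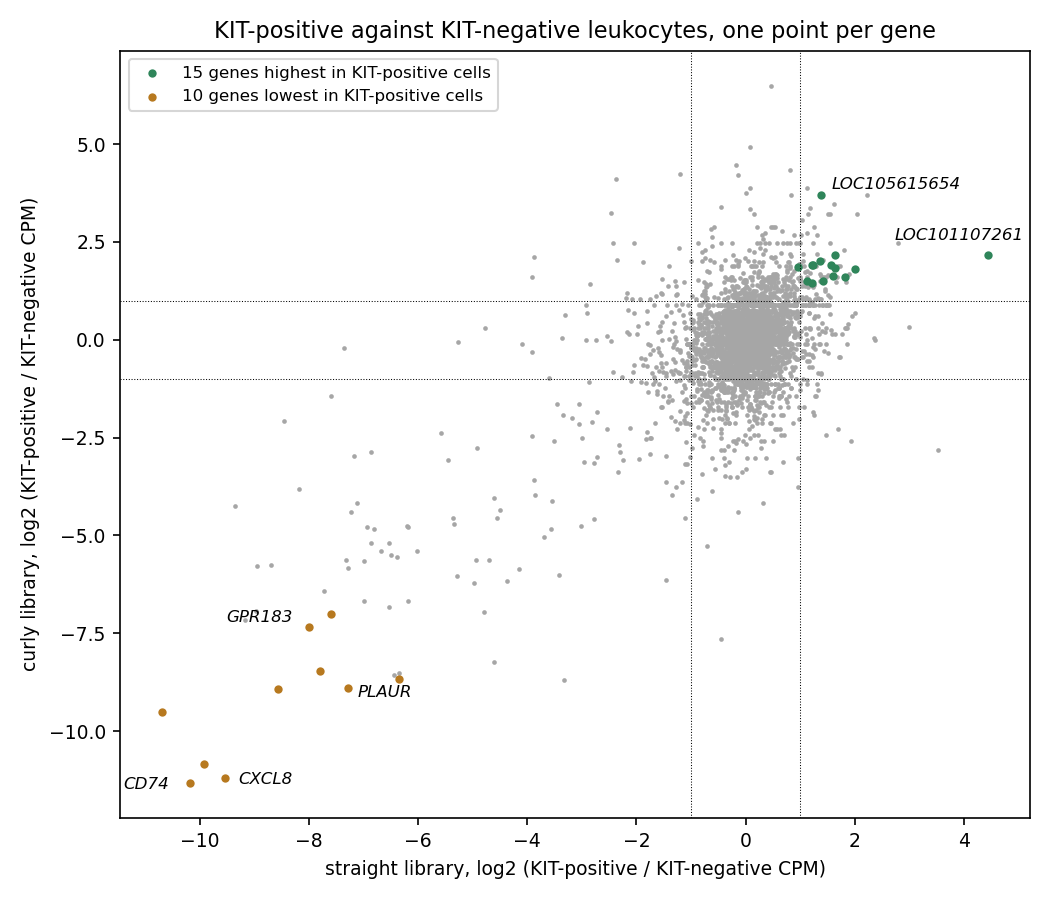
Each point is a gene, with its log2 ratio of KIT-positive over KIT-negative leukocytes in the straight library (horizontal axis) and the curly library (vertical axis), dotted lines at a 2-fold ratio, and the genes that the rule for naming selects in colour. CD74 and CXCL8 lie far to the lower left (log2 -10.18 and -9.53 in straight), and LOC101107261 lies far to the right at log2 4.45 in straight.

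KIT-negative leukocytes were themselves of different kinds, as a split by TPSB2 made after the values were seen shows. With at least 5 TPSB2 UMIs there were 83 straight and 20 curly KIT-negative cells, in which FCER1A stood at 806 and 623 CPM, LTC4S at 1396 and 2082 CPM, GATA2 at 398 and 328 CPM, and CD74 had 1 UMI in each library. With under 5 TPSB2 UMIs there were 32 and 27 cells, in which CD74 stood at 11176 and 10979 CPM and CXCL8 at 7136 and 10086 CPM. The median depth was 3895 UMIs in straight members and 3071 in all straight KIT-negative leukocytes, and members with 3 or more KIT UMIs were deeper, at 4617 UMIs in straight and 6579.5 in curly.

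The curly and straight members were compared gene by gene, to set the mast cell-like cells of the 2 wool types side by side. Of 1933 genes with at least 50 UMIs, 97 (5.02%) were at least 2-fold higher in curly and 248 (12.8%) at least 2-fold lower, with a median log2 ratio of -0.18. With scaling by trimmed mean of M values these were 133 and 179 genes, and the median became -0.00. Without mixed cells, of 1658 genes, 76 (4.58%) were higher and 209 (12.6%) lower, with a median of -0.07. The interval of the ratio lay above 0 for 147 of these genes and below 0 for 128. Without mixed cells the larger number of lower genes was thus seen by fold only. Over all members the interval lay above 0 for 194 genes and below 0 for 343. Of the genes past the fold, 27 higher ones were in both sets (27.8% and 35.5% of each) and 121 lower ones (48.8% and 57.9%).

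Ratios of mast cell genes depended on the mixed cells. Of 7 defining markers with enough UMIs, 2 were at least 2-fold lower in all curly members, and of 6 without mixed cells, 0. The shares of all tested genes that were so were 12.8% and 12.6%. The median log2 ratio of the defining markers was -0.57 and without mixed cells 0.19. FCER1A stood at -1.02 (-1.34 to -0.72) over all members and at -0.07 (-0.40 to 0.24) without mixed cells. TH stood at -0.74 and at -0.00 (-0.33 to 0.31), GATA2 at -0.57 and 0.27 (-0.27 to 0.76), and LTC4S at -0.32 and 0.56 (0.30 to 0.80). TPSB2 was lower in curly members in both counts, at -1.17 (-1.27 to -1.07) and without mixed cells -0.44 (-0.55 to -0.33), where it stood at 14720 and 10852 CPM. PTGS1 stood at -1.70 (-2.13 to -1.29) and -0.86 (-1.33 to -0.43), and CD63 at -1.27 and -0.92.

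Proteases of the chymase-like family differed in opposite directions. MCP-3 was lower in curly members, at log2 -2.95 (-3.27 to -2.64), and -2.39 (-2.78 to -2.03) without mixed cells, where it stood at 4872 and 928 CPM. It was lower in KIT-negative leukocytes (-3.06) and in cells that were no leukocytes (-3.99). In the latter cells FCER1A stood at -2.55, MCP1 at -1.98 and LOC101107261 at -0.45. Members without mixed cells stood at -0.07, 0.36 and 2.17 for the same genes. The source of mast cell transcripts in cells that were no leukocytes was not tested. LOC101107261 was higher in curly members, at 1.43 (1.02 to 1.83) and 2.17 (1.73 to 2.60) without mixed cells, and in KIT-negative leukocytes at 3.70 (2.34 to 5.42). MCP1 turned from -0.28 (-0.39 to -0.16) to 0.36 (0.23 to 0.49) without mixed cells, LOC101114959 stood at -0.73 and 0.12, LOC100144429 at -1.74 and -1.01, and LOC101104728 at -2.16 and -1.12. Without mixed cells LOC101104728 was at 0 in 8 of 159 straight and 10 of 25 curly cells.

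IFI6 and 3 loci without a name were higher in curly members and also in the other cells of that library. IFI6, an interferon-induced gene, had 24 UMIs in straight and 612 in curly members, or 32.1 and 4081 (2886) CPM. Its lowest, median and highest value per curly cell was 0, 2098 and 20139 CPM, and it was found in 93.5% of curly and 12.8% of straight members. The log2 ratio was 6.99 (6.40 to 7.65), and 6.35 (5.74 to 7.03) without mixed cells, beside 5.61 in KIT-negative leukocytes and 5.80 in cells that were no leukocytes. Endothelial cells had 102 and 11296 CPM of IFI6. Of the 13 measured interferon response genes, 9 had a UMI in straight and 12 in curly members, and they summed to 147 and 4481 CPM, of which IFI6 gave 4081 in curly. ISG15 stood at 81.5 and 240 (206) CPM, and MX1 had 5 UMIs in each library. LOC101113168, LOC114109518 and LOC114117805 stood at log2 7.68, 5.23 and 4.98 in the members, and at 4.87, 5.70 and 3.03 in cells that were no leukocytes.

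Keratinocyte genes depended on the mixed cells as well, in part by definition, since keratin UMIs were used to call a cell mixed. Of 8 keratinocyte markers with enough UMIs, 4 were at least 2-fold higher in curly members and 2 at least 2-fold lower. Of all tested genes these were 5.02% and 12.8%. Without mixed cells 2 of 8 were higher and 0 lower, beside 4.58% and 12.6% of all tested genes. CST6, an inhibitor of cysteine proteases of the epidermis, stood at log2 6.15 over all members and at 1.56 (1.27 to 1.85) without mixed cells. Its ratio was 1.31 in KIT-negative leukocytes and 1.58 in cells that were no leukocytes. CST6 was found in 93.3% of straight and 100% of curly members. KRT6A stood at 5.59 and 0.93 (-1.07 to 2.50). LOC101117112 had 0 UMIs in straight and 188 in curly members, a level at least 313-fold higher in curly, and without mixed cells its curly level was 29.4 CPM.

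Genes lower in curly members included several that most straight members carried. NMU, which encodes the neuropeptide neuromedin U, had 382 UMIs in 66.5% of straight members and 1 UMI in curly members. Its lowest, median and highest value per straight cell was 0, 271 and 7671 CPM. NRN1, neuritin, had 187 UMIs in 54.3% of straight members and 0 in curly, at least 12.5-fold lower, and LOC101114456 had 194 and 0 UMIs, at least 13-fold lower. Without mixed cells the bounds were 6.03-fold and 6.36-fold. LGALS1, the lectin galectin-1, was found in 90.2% and 32.3% of members, at 1574 and 167 (309) CPM. Its log2 ratio was -3.24 (-3.87 to -2.67), and -2.45 (-3.15 to -1.83) without mixed cells. S100B, a calcium-binding protein, stood at -3.86 and -2.81, and GNG11, a G protein subunit, at -2.20 and -2.25. MAN2B1, a lysosomal mannosidase, stood at -4.98 (-10.30 to -2.49), and without mixed cells at -3.96 (-9.28 to -1.46).

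Some of these differences were also seen in other cells of the libraries. In cells that were no leukocytes NMU stood at -3.02, LGALS1 at -1.43, GNG11 at -0.86, MAN2B1 at -0.49 and S100B at -0.05. NMU reached only 2.21 CPM in straight and 0.272 CPM in curly there. TH, at -0.00 in members without mixed cells, stood at -1.77 there, and the source of such RNA was not tested. In KIT-negative leukocytes S100B stood at -3.48 and NMU at -4.20. Without mixed cells, 16 of the 76 higher genes (21.1%) were also at least 2-fold higher in cells that were no leukocytes, where 1.15% of all tested genes were. Of the 209 lower genes, 29 (13.9%) were also at least 2-fold lower there, where 6.45% were. Whether the members differ from other cells in these genes was not tested.

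**Figure D5:**
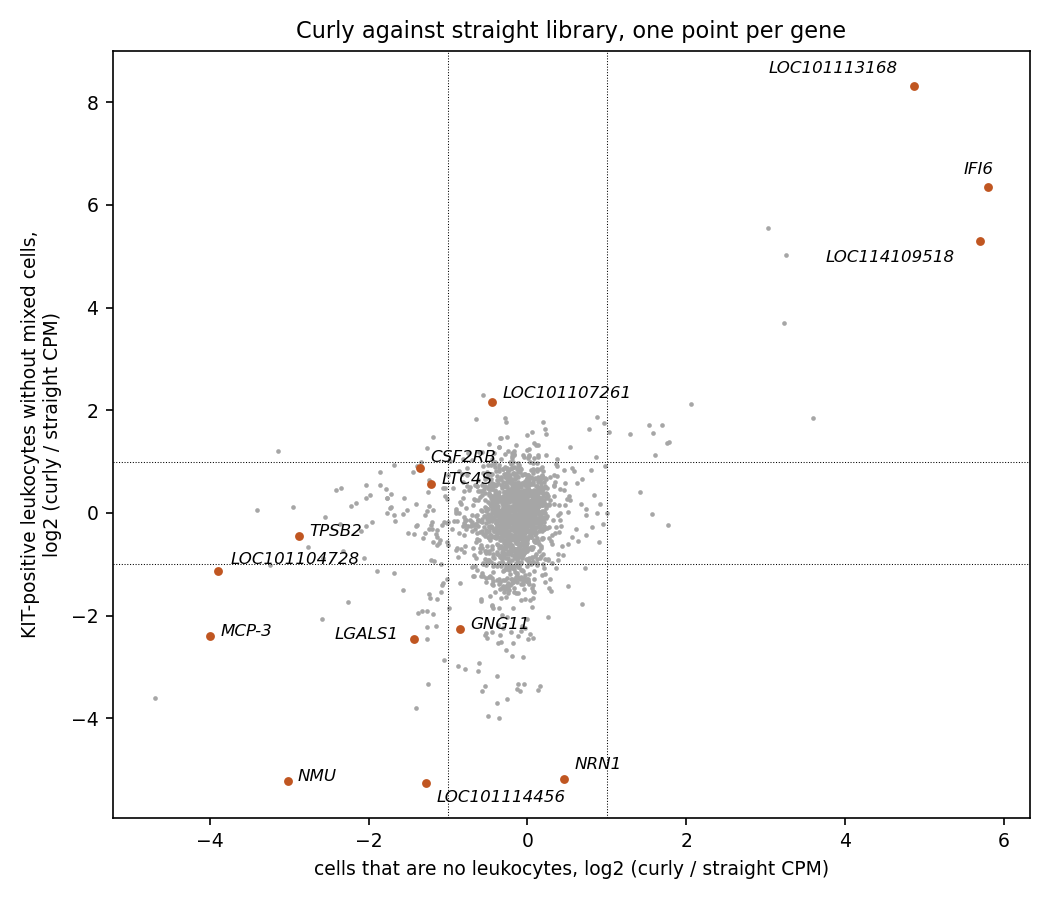
Each point is a gene, with its log2 ratio of curly over straight in cells that are no leukocytes (horizontal axis) and in KIT-positive leukocytes without mixed cells (vertical axis). IFI6 lies high on both axes (5.80 and 6.35), while S100B is near 0 on the horizontal axis at -0.05 and at -2.81 on the vertical axis.

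The ligand of KIT stood higher in endothelial cells than in the members. KITLG had 4 UMIs (5.34 CPM) in straight and 0 in curly members, where the exact interval of 0 reaches 24.6 CPM. It stood at 59.0 and 45.5 CPM in endothelial cells. Dermal cells, at 3.60 and 3.46 CPM, did not stand clearly above the members. EDN3, endothelin 3, a ligand of a receptor on melanocyte precursors, stood at 328 and 144 CPM in dermal cells and had 4 and 0 UMIs in the members.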

How the data were processed

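Skin cells of 2 libraries, straight and curly wool, were analysed, and each pooled 3 lambs. Cell Ranger (3.0.2 in the submitters' processing notes) was used by the authors with the genome Oar_rambouillet_v1.0, and cells were then filtered. The authors deposited natural log values, ln(1 + UMIs × 10000 / total UMIs of the cell). The comparisons had been planned on counts, so UMIs were recovered by inverting this formula, and 100% of 28552149 values came out whole within 0.01. The libraries held 6452 and 7585 cells with 57956122 and 77634565 UMIs.

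No cell filter was added. UMIs were summed per class and library as CPM with exact Poisson intervals, shares have Clopper-Pearson intervals, and log2 ratios the exact interval of the binomial split, all at 95%. Where a sum was 0, 0.5 UMI was added for ranking. Genes had at least 50 UMIs, classes at least 25 cells per library. Endothelial cells had at least 3 markers of that list, and dermal cells at least 5. Members, lists and tests were chosen with earlier results of these data known. Of 332 list entries 281 were measured, 3 of them by gene ID. Named were list members, the 15 highest and 10 lowest genes against KIT-negative leukocytes, the 10 highest and 10 lowest of curly against straight by the interval bound nearest 0, the 10 genes most like KIT, and protease loci named in RefSeq (ARS-UI_Ramb_v3.0, another assembly, used for names and neighbours only). Any other gene named was chosen after its values were seen. Doublets were scored by Scrublet in scanpy 1.11.5. Its threshold called 60 cells (0.427%) and had not worked, so the highest 6% of scores, 11 straight and 4 curly members among them, were left out as an alternative. Alternatives changed the leukocyte genes, KIT UMIs, depth, gene minimum, scaling and averaging. The calculations ran in Python 3.11.15 with numpy 2.4.6, scipy 1.17.1, pandas 2.3.3 and matplotlib 3.10.9, and were tested on simulated counts.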

Additional observations from a re-analysis of the deposited data

Results flagged for a closer look

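IGFBP3, which encodes a binding protein of insulin-like growth factors, had opposite directions in 2 unlike sets of leukocytes. Its log2 ratio of curly over straight was -3.81 in KIT-positive leukocytes without mixed cells. In KIT-negative leukocytes, where mixed cells were kept, it was 0.50. Over all members the ratio was 0.18, the same direction as in KIT-negative leukocytes. The curly members held 39 UMIs, 1 of them outside mixed cells, so the -3.81 rests on 1 curly UMI. The gene was found in 13.4% of straight and 12.9% of curly members. The difference between the 2 kinds of leukocytes was not tested.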

How the results depend on the processing

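No paired analysis was possible because each wool type has 1 library and the result comes from no test, and no replicate could be left out. The share of cells that were members (straight and curly) was 1.05% and 0.211% with at least 4 leukocyte genes, 1.61% and 0.198% with at least 2 KIT UMIs, 0.832% and 0.139% in cells with many detected genes (the minimum taken from the earlier work on these data), and 0.633% and 0.0895% after thinning. The KIT-positive share of leukocytes was 37.3% and 19.2% with at least 2 KIT UMIs, 25.2% and 13.3% after thinning, and 47.0% in straight with at least 2 leukocyte genes. Genes at least 2-fold higher and lower in KIT-positive than KIT-negative leukocytes numbered 316 and 328 with at least 2 leukocyte genes, and 1 and 17 after thinning. They numbered 545 and 682 with a minimum of 1 UMI per gene, 197 and 298 with 20, and 29 and 43 with 200. Higher genes were 51 with at least 2 KIT UMIs and 36 when CPM was averaged over cells. Curly against straight, higher and lower genes were 2592 and 2011 with a minimum of 1 UMI, 350 and 710 with 20, and 24 and 50 with 200. Alternatives that left under 25 curly members fall below the minimum set for this comparison, and their counts, given as a description, were 62 and 127 with at least 4 leukocyte genes, 70 and 210 with at least 2 KIT UMIs, 69 and 169 in cells with many detected genes, and 4 and 12 after thinning.

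Some directions reversed. KRTDAP, KIT-positive over KIT-negative, became -0.055 in straight and -1.49 in curly with at least 2 leukocyte genes, -0.057 in curly with per-cell means, and -0.13 in straight without mixed cells. After thinning, which left 6 curly members, curly ratios became -2.43 for PTGS1, -2.19 for LOC101104728, -1.55 for LOC101114275, -2.79 for SLC45A3, -0.16 for FOSB and -1.11 for C15H11orf96, and straight ratios -0.12 for MCP1 and -0.35 for LOC101107261. Curly over straight, LTC4S became 0.13, MCP1 0.069, JUNB 0.23, KRT10 0.66, LAMP1 -0.43 and KRT17 -0.19 without the highest doublet scores. LTC4S became 0.038, GATA2 0.42, HRH4 0.18, KIT 0.15, MCP1 0.30 and LAMP1 -0.11 with per-cell means. Without mixed cells LTC4S became 0.56, KRT10 0.67, GATA2 0.27, MCP1 0.36, KIT 0.18, LOC101114959 0.12, FCER1G 0.053, VIM 0.043, LOC101114275 0.041, LAMP1 -0.35, PECAM1 -0.58, KRT17 -0.090 and LOC101117682 -0.31. Leaving out mixed cells and shared barcodes was chosen after seeing the data. The cause of these shifts was not tested.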

Other observations

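A few immune genes not described so far were seen in straight members, with few or no UMIs in curly members. Straight members held 748483 UMIs and curly members 149976, so these raw counts are not on the same scale. IL17RB, a receptor chain for interleukin 25, had 61 UMIs in 31 straight members, or 81.5 CPM. It had 0 UMIs in curly members, where the exact interval of 0 reaches 24.6 CPM. RORA, a transcription factor of innate lymphoid cells, had 43 UMIs in straight and 2 in curly members. CD200R1, an inhibitory receptor of mast cells, had 27 and 0 UMIs and stood at 36.1 CPM in straight. Without mixed cells the interval of a count of 0 in curly members reached 54.3 CPM, which is above that level of CD200R1. Cell cycle genes summed to 267 CPM in straight and 287 CPM in curly members, beside 512 and 459 CPM in cells that were no leukocytes.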
